A study of Rattus norvegicus with 6 samples.

Results

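The guanylate-binding protein genes Gbp1, Gbp2, Gbp4 and Gbp5 were compared between crushed and intact sciatic nerves of the rat. They were chosen by name, with crushed against intact counts of these nerves already known, and are 4 of the 30957 genes counted. Their crushed against intact values are therefore given as a description, with standard errors and without a test. All 4 had a count in at least 1 nerve, and 3 of them, Gbp2, Gbp4 and Gbp5, passed edgeR's filter on low counts.

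RNA-seq was done on sciatic nerves of Sprague-Dawley rats, 3 of them crushed and 3 intact, the latter from the contralateral side. According to the methods, the rats were adult males, and the proximal stump of the crushed nerve was taken at 4 days postinjury (dpi), a time that the labels do not give. The labels name a column kit for the RNA, the methods TRIzol with rRNA removal and RNase R, and the 2 sources place the crush on opposite sides of the body. Nothing states whether the nerves came from separate rats or whether a crushed and an intact nerve of the same number shared a rat, so errors and p-values measure the spread between these samples only.

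Guanylate-binding proteins are large dynamin-related GTPases made by many cell types after exposure to interferons, above all interferon-γ. Interferon-γ acts through its receptor and JAK kinases on transcription factors that bind the GAS element or, like IRF1, the interferon-stimulated response element (ISRE). The proteins assemble on the vacuoles and surfaces of intracellular pathogens, and several of them promote the inflammasome and its caspases.

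The total count on genes was between 24844371 and 27139360 per nerve, so that 3 counts, taken as the floor of detection, were 0.110 to 0.121 normalized CPM (counts divided by the TMM-adjusted library total). Within each group the nerves differed beyond sampling noise, so that all 6 were kept apart. Defining markers of nerve were absent or nearly so: 6 of 12 Schwann cell and myelin genes, among them Mbp, Mag, S100b, Sox10 and Cdh19, had 0 to 3 counts in every nerve, although Pmp22 and Prx were detected. Ptprc, Adgre1, Cd163 and Tyrobp, which mark leukocytes and macrophages, were at 0 in all 6 nerves. Of 11 T and NK cell genes, counting both entries of Gzmb, 9 did not exceed 3 counts in any nerve. The same held for 5 of 6 neutrophil genes. The fibroblast genes Dcn, Lum and Col1a2 were at 0. All 6 proliferation genes were high, with Mki67 between 37037 and 43837 counts. The levels below are thus those of RNA in which the defining markers of sciatic nerve and of its leukocytes were largely missing.

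In the coordinates of the deposited table (Rnor_6.0), the 4 members lie within 231 kb of chromosome 2. Gbp5 (ENSRNOG00000032240) occupies 248178389-248197160, Gbp4 (ENSRNOG00000028768) 248249468-248263168, Gbp2 (ENSRNOG00000031743) 248276709-248293784 and Gbp1 (ENSRNOG00000023943) 248398917-248409570. 2 further genes of the family lie in the same stretch. LOC685067 (ENSRNOG00000029191), at 248219428-248239899 between Gbp5 and Gbp4, is described in the table as similar to member 6 of the family and carries the NCBI number that RefSeq now lists as Gbp7. Gbp3 (ENSRNOG00000036885), at 248451547-248484100, follows Gbp1. The genes are close relatives of one another, and how reads shared between copies were assigned is not given in the sources used here, so that a part of the counts of one may belong to another.

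The regions upstream of these genes are shown because interferon-responsive genes are commonly controlled from elements close to their start. They were taken from RefSeq in the GRCr8 assembly, a later build than that of the table, and run from 250 bases before to 50 bases after the annotated start. 5 of the 6 family genes were matched to 6 such windows, Gbp1 having 2. The letters searched on both strands were the core of the ISRE, GAAANNGAA, the GAS element, TTCNNNGAA, and the NF-κB motif. All 6 windows held the ISRE core, which occurs in 9.71% of the 33469 rat promoters of the same length. A match describes the letters only and is not evidence of a bound site. The window of Gbp5 (chr2:233910749-233911048, plus strand) is printed whole, with its 2 ISRE cores (TTC at their left end, since they read on the minus strand) and 3 NF-κB matches in capitals.
Gbp5: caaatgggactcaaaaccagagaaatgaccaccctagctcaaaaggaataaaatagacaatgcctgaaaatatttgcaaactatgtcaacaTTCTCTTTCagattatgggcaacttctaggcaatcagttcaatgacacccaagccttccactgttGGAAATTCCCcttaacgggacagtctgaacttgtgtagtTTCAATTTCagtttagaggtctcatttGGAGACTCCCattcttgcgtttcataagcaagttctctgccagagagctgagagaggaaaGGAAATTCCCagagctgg

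An ISRE core together with an NF-κB match, as in the window of Gbp5, occurs in 0.565% of all promoters, and an NF-κB match with or without the ISRE core in 7.51%. The windows of LOC685067, Gbp4, Gbp2 and Gbp1 held no match to the NF-κB motif. The GAS element, present in 8.87% of promoters, was found in the window of LOC685067, at 2 places, and in no other window of the family. To compare the ISRE cores themselves, 61 bases centred on the core nearest the start are given for each gene on the plus strand, with the core in capitals, for Gbp1 from the first of its windows.
Gbp5, chr2:233910918-233910978: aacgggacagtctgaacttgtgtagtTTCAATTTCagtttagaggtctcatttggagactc
LOC685067, chr2:233948823-233948883: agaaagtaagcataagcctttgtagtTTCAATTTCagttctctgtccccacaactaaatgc
Gbp4, chr2:233978451-233978511: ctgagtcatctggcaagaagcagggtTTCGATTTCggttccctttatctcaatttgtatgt
Gbp2, chr2:234005671-234005731: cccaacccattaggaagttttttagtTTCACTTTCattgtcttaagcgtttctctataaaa
Gbp1, chr2:234071215-234071275: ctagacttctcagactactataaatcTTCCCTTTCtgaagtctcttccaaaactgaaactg

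The core began 55 bases upstream of the start in Gbp5, 40 in LOC685067, 30 in Gbp2 and 9 in Gbp4. In Gbp1 it began at 125 bases, and the second window of Gbp1 held 3 cores between 230 and 128 bases upstream, of which 2 overlap. Gbp5 and LOC685067 shared an unbroken run of 19 bases across the core and were identical at 34 of 61 positions. The other pairs among these genes were identical at 20 to 30 positions, with unbroken runs of at most 8 bases. A core starting in the last 150 bases before the start occurs in 4.72% of all promoters.

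**Figure D1:**
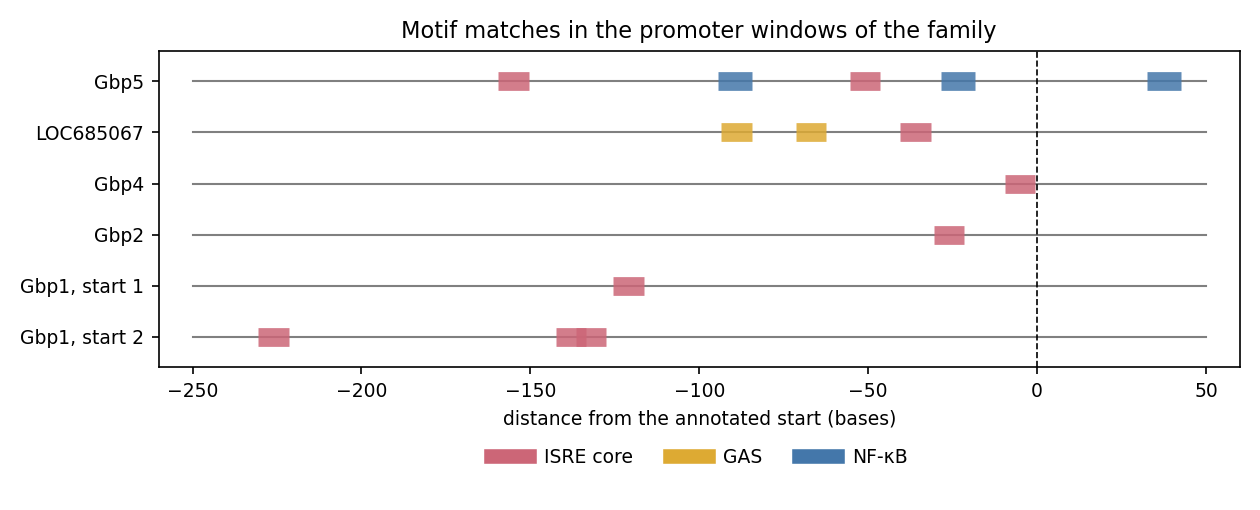
Positions of matches to the ISRE core, the GAS element and the NF-κB motif (coloured blocks) in the 6 promoter windows of the family, by distance in bases from the annotated start (dashed line). Every window holds an ISRE core, NF-κB matches appear in that of Gbp5 only and GAS matches in that of LOC685067 only.

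Gbp2 was the abundant member of the family. Its normalized CPM was 238, 241 and 235 for intact replicates 1, 2 and 3, against 402, 413 and 406 for crushed replicates 1, 2 and 3. The 3 crushed nerves lay close together and far above the 3 intact nerves. The mean rose from 238 ± 2.81 to 407 ± 5.26 normalized CPM (SD, n = 3 each), a log2 fold change of 0.77 with a standard error of 0.0362, or 1.71-fold. The coefficient of variation was 1.18% in intact and 1.29% in crushed nerves, close to the 1.28% and 0.963% that counting error alone gives at this depth. In bulk RNA, a different number of cells of a type and a different amount of RNA per cell cannot be told apart.

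Gbp5, which promotes assembly of the NLRP3 inflammasome, had the largest fold change of the 3 members tested. Intact nerves 1, 2 and 3 gave 8, 18 and 11 counts, whereas crushed nerves 1, 2 and 3 gave 96, 107 and 91. The lowest crushed nerve was several times the highest intact nerve, and the groups did not overlap. In normalized CPM, intact nerves were at 0.316, 0.682 and 0.444, and crushed nerves at 3.52, 3.94 and 3.63, in the same order. The log2 fold change was 2.92 with a standard error of 0.233, or 7.58-fold. The ratio of summed counts, scaled to the library totals, was 7.73, with a 95% interval from counting error alone of 5.48 to 11.2. Gbp5 passed the filter on low counts only through the crushed nerves, where it was high, and its intact level rests on few counts. The intact nerves varied by 38.6% among themselves and the crushed nerves by 5.95% (coefficient of variation), where counting error alone gives 28.5% and 10.1%.

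Gbp4 lay between them. Its normalized CPM was 2.49, 2.31 and 1.98 for intact replicates 1, 2 and 3, against 4.50, 5.38 and 6.07 for crushed replicates 1, 2 and 3, from 49 to 63 counts per intact nerve and 123 to 152 per crushed nerve. The groups did not overlap, and the crushed nerves were farther apart than for Gbp2. The log2 fold change was 1.23 with a standard error of 0.159, or 2.34-fold.

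Gbp1 was barely detected. The counts were 0, 1 and 1 for intact replicates 1, 2 and 3, against 2, 0 and 6 for crushed replicates 1, 2 and 3. Crushed nerve 3 alone exceeded the floor of 3 counts, the groups overlapped, and no fold change is given. A change in Gbp1 was not detectable at this depth.

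**Figure D2:**
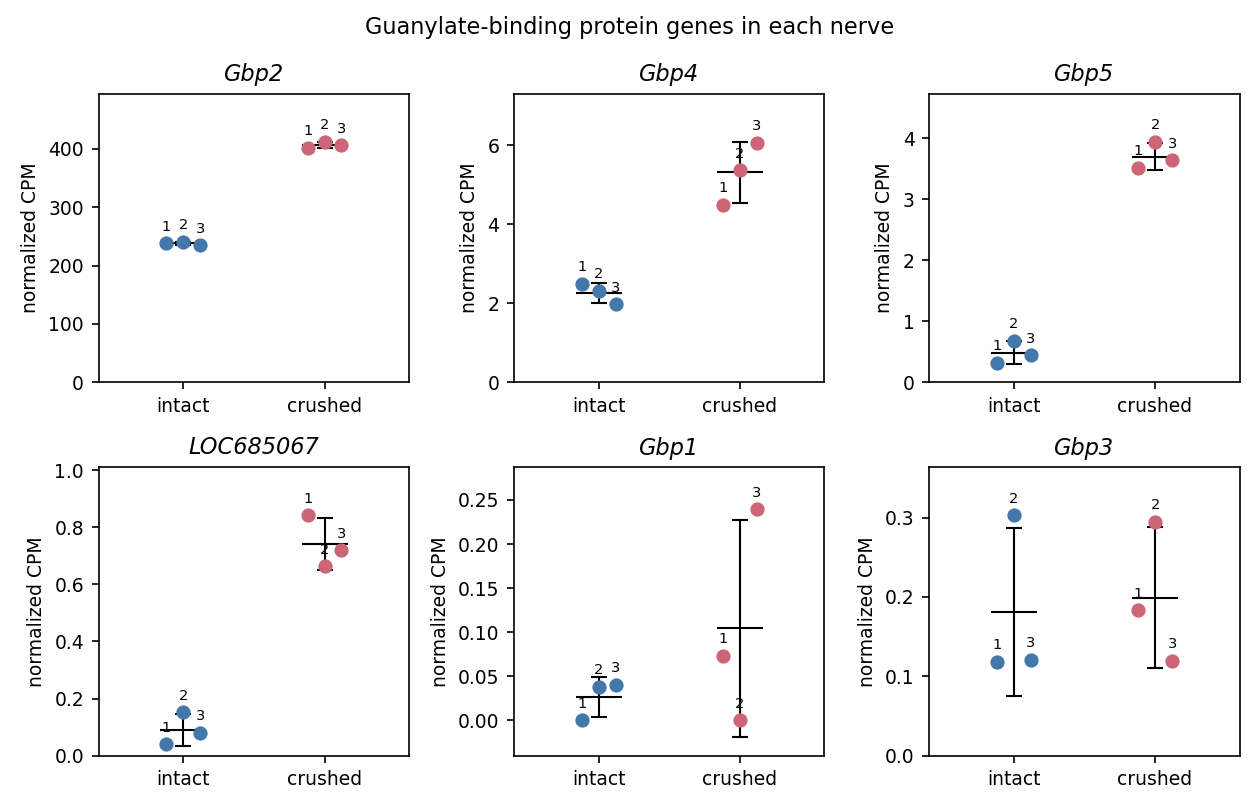
Normalized CPM (vertical axis, a separate linear scale per gene) of the 4 members, LOC685067 and Gbp3 in intact (blue) and crushed (red) nerves. Numbered points are single nerves, and the bar and whiskers are the mean and SD of 3 nerves. The groups are apart for Gbp2, Gbp4, Gbp5 and LOC685067 and overlap for Gbp1 and Gbp3.

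Of the 2 other genes of the family, LOC685067 behaved much as its neighbour Gbp5. Its counts were 1, 4 and 2 for intact replicates 1, 2 and 3, against 23, 18 and 18 for crushed replicates 1, 2 and 3. The groups did not overlap, but 2 of the 3 intact nerves were under the floor of 3 counts and the other was just above it. Its fitted log2 fold change was 2.95 with a standard error of 0.437, given as a description without a test. The ratio of summed counts was 8.20, with a 95% counting interval of 3.74 to 21.3. Like Gbp5, it passed the filter only through the crushed nerves, where it was high. For Gbp3 the intact replicates gave 3, 8 and 3 counts and the crushed replicates 5, 8 and 3, which overlapped, and it did not pass the filter.

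Ordered by log2 fold change among the 12393 genes tested, LOC685067 ranked 3, Gbp5 4, Gbp4 27 and Gbp2 89. A gene was called by fold and p where its log2 fold change exceeded 1 in size with an unadjusted p under 0.001, limits taken from the methods, and, separately, by an adjusted p under 0.05. By fold and p, 0.218% of all genes tested were called higher and 0.0646% lower, and by adjusted p 1.47% were called higher and 1.65% lower. Of the members, Gbp4 and Gbp5 exceeded the log2 fold change limit of 1 and Gbp2 did not. No call is given for the members. In all 3 members that passed the filter, every crushed nerve was above every intact nerve in normalized CPM, as in 10.8% of all genes tested. These ranks and this separation restate the values by which the members were selected and carry no further evidence.

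Levels of different genes were set side by side per length, in FPKM (fragments scaled to gene length and library size, as deposited). Gbp2 was at 95.3 ± 0.999 FPKM in intact and 165 ± 1.96 FPKM in crushed nerves (SD, n = 3 each). Among the 17425 genes with a count, its mean FPKM ranked 862 in intact and 439 in crushed nerves. Gbp4 was next, at 0.751 to 0.939 FPKM in intact and 1.73 to 2.32 FPKM in crushed nerves. Gbp5 followed, at 0.101 to 0.218 and 1.14 to 1.27 FPKM. LOC685067 was at 0.0208 to 0.0802 and 0.355 to 0.451 FPKM. The ranges of these 4 genes did not overlap within either group, so the order Gbp2, Gbp4, Gbp5, LOC685067 was the same in intact and crushed nerves. Gbp3, at a mean of 0.0947 FPKM in intact nerves, overlapped Gbp5 and LOC685067 there and lay below both in crushed nerves.

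The genes did not rise in proportion, and the makeup of the family shifted. Gbp2 gave 98.6% to 98.9% of the family's summed FPKM in intact nerves and 97.6% to 97.9% in crushed nerves. The share of Gbp5 was 0.105% to 0.223% in intact and 0.683% to 0.745% in crushed nerves, and that of Gbp4 was 0.786% to 0.976% and 1.04% to 1.38%. None of these shares overlapped between the groups, but they are parts of the same sum and restate the fold changes above. The FPKM of Gbp2 was 442 to 944 times that of Gbp5 in intact nerves and 131 to 143 times in crushed nerves. The FPKM of Gbp4 was 4.01 to 9.32 times that of Gbp5 in intact nerves and 1.52 to 1.98 times in crushed nerves. The wide range in intact nerves comes with the few counts of Gbp5 there. The ratio of Gbp2 to Gbp4 was 101 to 126 in intact and 70.9 to 94.5 in crushed nerves, a smaller shift that also left the groups apart.

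Along the chromosome the log2 fold changes were 2.92 for Gbp5, 2.95 for LOC685067, 1.23 for Gbp4 and 0.77 for Gbp2, listed in the order of their coordinates. Within 500 kb of the outer ends of the members there were 15 genes in the table, 6 of them of the family. Of the 9 others, 4 had counts and were tested, and 0 were called by either rule in edgeR's quasi-likelihood test. Pdlim5, which encodes a PDZ and LIM domain protein and is the nearest gene with counts on the Gbp5 side, showed a log2 difference of -0.11 (adjusted p = 0.261, edgeR, unadjusted p = 0.0333). On the other side Ccbl2, a kynurenine aminotransferase, had -0.07 (adjusted p = 0.919, edgeR) and Gtf2b, the general transcription factor TFIIB, 0.03 (adjusted p = 0.879, edgeR). The larger changes in this stretch were thus measured in 4 genes of the family, while the 4 neighbours tested had log2 fold changes between -0.11 and 0.03.

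**Figure D3:**
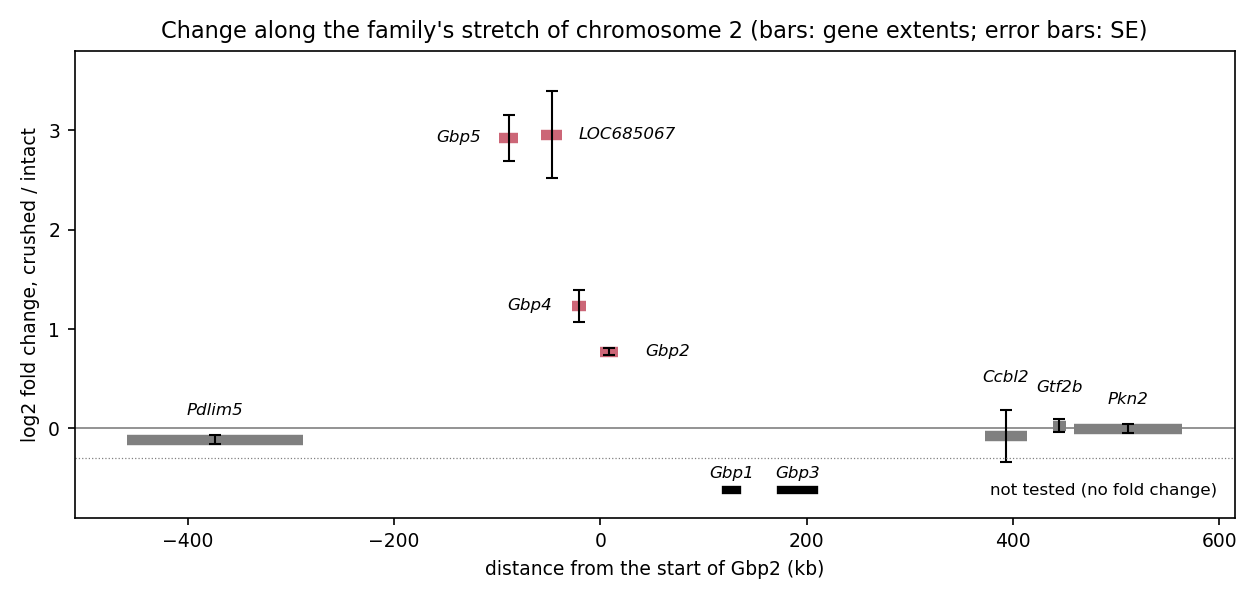
Log2 fold change of crushed over intact nerves (vertical axis) for the genes with counts around the family, by distance in kb from the start of Gbp2. Horizontal bars span each gene and whiskers are standard errors. The 4 family genes in red lie between 0.77 and 2.95, the 4 tested neighbours in grey lie near 0, and Gbp1 and Gbp3 in black have no fold change.

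The other genes of the interferon and inflammasome pathways were taken from 7 lists, none of which holds a guanylate-binding protein. Of 92 symbols listed, 85 were in the table, and 65 genes passed the filter. Of these, 15 rose by adjusted p and 0 fell (edgeR's quasi-likelihood test), that is 23.08% higher against 1.47% of all genes tested. The lists were chosen with earlier results of these data known, so this contrast is a description and not independent evidence. At an unadjusted p under 0.05, 30 were higher and 0 lower, and 0 fell by adjusted p in DESeq2. The median log2 fold change was 0.13, against -0.0017 over all genes tested. By fold and p, 0 of the 65 were called. Since only 0.218% of all genes tested were called higher and 0.0646% lower by that rule, this count is near the general share. All 15 had every crushed nerve above every intact nerve, as had 10.8% of all genes tested. That separation largely follows from the call and adds nothing to it. Of the 15, 8 were called under each of the 10 alternatives tried. Without crushed nerve 1, or without crushed nerve 2, 9 pathway genes rose.

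Among ligands, receptors and JAK kinases, 1 of 7 tested rose. The interferon-γ gene Ifng had 0 counts in every nerve except crushed nerve 2, which had 1, and the interferon-β gene Ifnb1 had 0 in all 6. For the receptor, normalized CPM of Ifngr2 was 20.7, 18.7 and 13.9 in the intact and 25.8, 26.1 and 25.9 in crushed nerves 1, 2 and 3. The groups were apart, with intact nerve 3 lower than the other intact nerves. Ifngr2 rose by 0.55 on the log2 scale (SE 0.118, adjusted p = 0.0331, edgeR), a call lost in 5 of the 10 alternatives. The other chain, Ifngr1, showed a log2 difference of 0.12 (adjusted p = 0.216, edgeR).

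Of the transcription factors and inhibitors, 3 of 10 tested rose. Irf1, which drives many interferon-γ targets, had 101, 102 and 99.99 normalized CPM in intact and 135, 134 and 136 in crushed nerves 1, 2 and 3. It rose by 0.42 (SE 0.0389, adjusted p = 0.000158, edgeR), and its crushed nerves were all above the intact nerves by far more than the spread within a group. Stat2, which acts in the type I response, rose by 0.25 (adjusted p = 0.0394, edgeR), a call met in 3 of the 10 alternatives. Socs1, which inhibits JAK kinases, had a log2 fold change of -0.26 with a standard error of 0.27 (adjusted p = 0.680, edgeR), from no more than 2.13 normalized CPM in any nerve.

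Type II interferon targets outside the GTPases rose in 5 of 14 tested. These were led by the adhesion molecule Icam1 (log2 fold change 0.82, SE 0.0615, adjusted p = 3.5e-05, edgeR), the immunoproteasome subunit Psmb10 (0.57, SE 0.0469, adjusted p = 7.3e-05) and Tapbp, which helps to load peptides onto class I molecules (0.46, SE 0.0423, adjusted p = 0.000158). The 14 ran from -0.12 to 0.82, with a median of 0.16. Of the type I targets, 5 of 21 tested rose, and the median of the 21 was 0.15. The lowest of them was Isg15, at -0.06 (adjusted p = 0.763, edgeR). Rsad2, which encodes the antiviral protein viperin, rose by 0.88 (SE 0.102, adjusted p = 0.000778, edgeR), Parp14 by 0.35 and Parp9 by 0.30 (adjusted p = 0.00078 and 0.0137, edgeR). The call of Parp9 was lost without any one of the 3 crushed nerves.

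The other interferon-induced GTPases, nearest to the members in function, did not pass the test. Of 10 symbols listed, 5 were in the table and 4 were tested, and 0 were called (edgeR's quasi-likelihood test), although 3 were higher at an unadjusted p under 0.05. Their median log2 fold change was 0.20, with 3 positive and 1 negative value. Igtp had 0.14, Irgm 0.25, Ifi47 0.32 and Mx2 -0.18, all smaller in size than the 0.77 of Gbp2. The atlastins, relatives of the guanylate-binding proteins that shape the endoplasmic reticulum and are not known for induction by interferon, had a median of 0.0028 over the 3 genes tested, and 0 were called. In the inflammasome and pyroptosis list 1 of 6 tested rose, Casp4, the caspase that senses lipopolysaccharide (log2 fold change 0.54, SE 0.105, adjusted p = 0.0189, edgeR), a call lost in 4 of the 10 alternatives. Il1b had 0 counts in all 6 nerves.

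**Figure D4:**
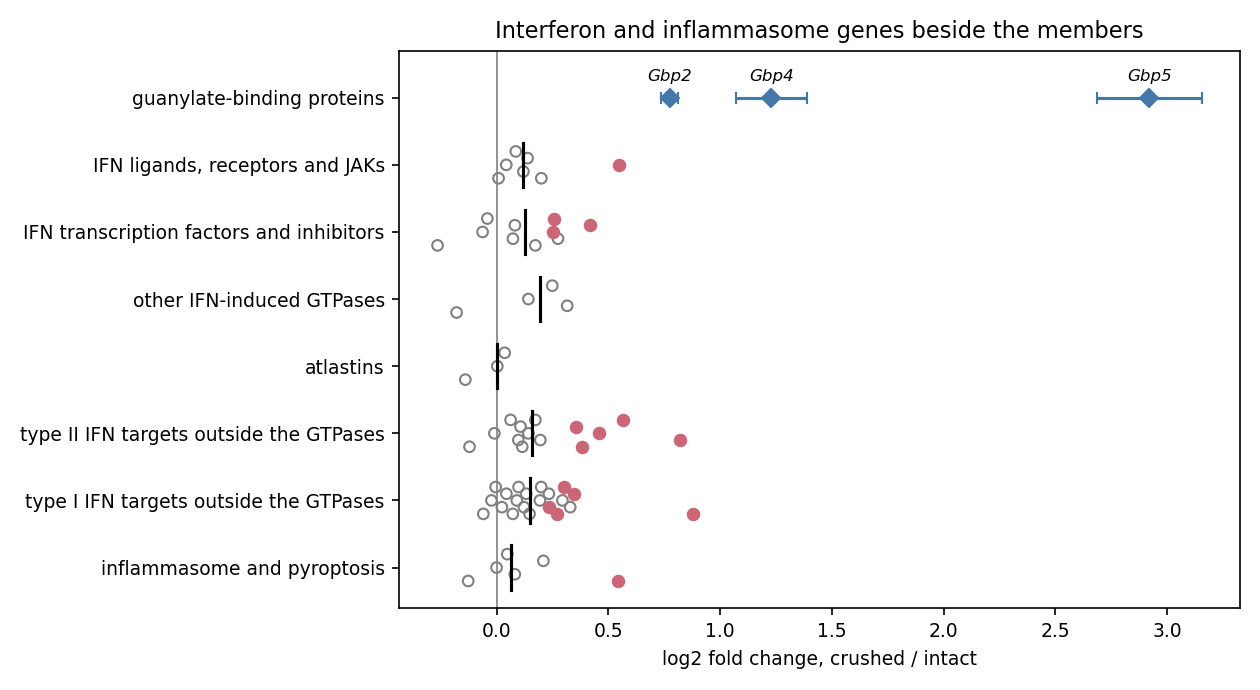
Log2 fold change of crushed over intact nerves (horizontal axis) for Gbp2, Gbp4 and Gbp5 (diamonds, with standard errors). Below them are the tested genes of 7 pathway lists, the atlastins among them. Red points passed an adjusted p under 0.05, open points did not, and vertical strokes are list medians. The red points lie between 0.23 and 0.88, and Gbp4 and Gbp5 lie to the right of all of them.

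Markers of other cells were read beside these changes. The summed FPKM of 11 macrophage and monocyte genes was 2.30 to 3.16 in intact and 2.28 to 3.59 in crushed nerves, and that of the 11 T and NK cell genes was 0.0221 to 0.177 and 0.0722 to 0.218. Both ranges overlapped between the groups. Cd14 and Cd68, the most abundant of the macrophage genes, had log2 fold changes of -0.04 and 0.21 (adjusted p = 0.951 and 0.732, edgeR). The 12 Schwann cell and myelin genes summed to 17.7 to 19.0 FPKM in intact and 17.2 to 17.4 in crushed nerves, and the 8 fibroblast and perineurial genes to 10.6 to 11.7 and 10.3 to 11.3. The 7 endothelial genes summed to 0.938 to 1.09 in intact and 0.684 to 0.903 in crushed nerves, and the neutrophil genes to 0.200 to 0.415 and 0 to 0.0981, carried by S100a8 alone. The most abundant markers of the Schwann cell list, Pmp22 and Prx, had log2 fold changes of 0.03 and -0.20 (adjusted p = 0.834 and 0.166, edgeR). Among fibroblast and endothelial markers, Pdgfra had 0.19, Tek -0.66 and Vwf 0.50 (adjusted p = 0.166, 0.0874 and 0.494, edgeR). The markers called by adjusted p were all lower: Erbb3 fell by 0.59, Col1a1 by 0.69 and Col3a1 by 1.76 on the log2 scale (adjusted p = 0.0222, 0.000662 and 0.0268, edgeR). The size of the Col3a1 fall is uncertain, because nerves 1, 2 and 3 had only 22, 23 and 21 counts when intact. Crushed, they had 10, 3 and 7, the second being at the floor of detection. The part of these marker differences in the levels of the members was not tested.

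The genes outside the family with the pattern most like the summed members were found by the root mean square difference between log2 normalized CPM values over the 6 nerves, each gene centred on its own mean. Since Gbp2 makes up nearly all of that sum, the pattern is its own. Of 12385 genes compared, the closest were Nfkb2, the p100 subunit of NF-κB (0.0281), the complement protease C1s (0.0490), the AP-1 subunit Junb (0.0616), Parp8 (0.0652) and the TNF receptor adaptor Traf1 (0.0653). Their log2 fold changes lay between 0.71 and 0.81, beside 0.77 for Gbp2. None of the 5 was in the pathway lists. The likeness covers 6 nerves in 2 groups, so that it is largely a likeness in the size of the difference between the groups.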

How the data were processed

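RNA-seq counts and FPKM of 3 crushed and 3 intact rat sciatic nerves were used. The authors deposited 1 table with, per Ensembl gene and nerve, a count of reads that was not normalized and an FPKM value scaled to gene length and library total. The submitters' processing notes name HISAT2, StringTie 1.3.0 and Rnor_6.0. The counting rule, strand setting and annotation release are not given in the sources used here. Sample titles tied each of 12 value columns to its nerve, and 0 other value columns were found.

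The counts of all 6 nerves were fitted together in edgeR 4.0.16 (quasi-likelihood test, TMM factors, filterByExpr; limma 3.58.1, R 4.3.3), with no replicate block. An adjusted p is that of this test with Benjamini-Hochberg adjustment over 12393 genes. The standard error was taken from the test statistic. The methods do not say whether their p is adjusted, and it was read as unadjusted. The members, gene lists and tests were chosen with earlier results of these data known. Beside the members, the genes named were the rest of the family, neighbours within 500 kb that were called or among the nearest with counts, up to 3 called genes with the smallest adjusted p per pathway list, the interferon-γ pathway genes Ifng, Ifngr1, Ifngr2, Irf1 and Socs1, the most abundant cell markers and the 5 genes most like the summed members. Further markers, Ifnb1, Il1b, Isg15 and the other GTPases were named after their values were seen. Some items that this rule or the marker lists name are not reported here by name. Genes with a 0 in any nerve were left out of the likeness.

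The alternatives were a replicate block, DESeq2 1.42.0 with its size factors, no filter on low counts, limma on log2(FPKM + 0.1) and each nerve left out in turn. At 24844371 to 27139360 counts per nerve, intervals and floors reflect counting error alone, because no molecular identifiers are stated. Promoters were matched by symbol or NCBI gene number.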

Additional observations from a re-analysis of the deposited data

How the results depend on the processing

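Gbp2, Gbp4 and Gbp5 were higher in crushed nerves under all 10 alternatives, with log2 fold changes of 0.76 to 0.79, 1.13 to 1.34 and 2.38 to 3.27. The lowest value of Gbp5, 2.38, came from limma on log2(FPKM + 0.1), where the pseudocount is near the intact level, and that of LOC685067 was then 1.76. The number of genes called by adjusted p was 387 (182 higher, 205 lower). It was 242 with limma on log2(FPKM + 0.1) (156 higher, 86 lower) and 512 in DESeq2 (221 higher, 291 lower). Leaving out 1 nerve at a time gave 179 to 392 genes by adjusted p (100 to 218 higher, 75 to 174 lower) and 9 to 14 pathway genes higher against 15. By fold and p, 35 genes were called (8 lower), and 27 to 41 under the alternatives, with 5 lower in DESeq2, 2 with limma on FPKM and 3 to 10 without 1 nerve. The cause of these differences was not tested, and the fits without 1 nerve also have fewer nerves. Whether same-numbered nerves shared a rat is not stated. Their deviations from the group means correlated between -0.00965 and 0.0709, and 2 of 6 nerves correlated best with their own number. With 3 nerves per group, these correlations cannot show whether a rat was shared. With the replicate block, 29 genes were called by fold and p (5 lower) and 300 by adjusted p, 12 pathway genes rose, and Gbp2, Gbp4 and Gbp5 had log2 fold changes of 0.77, 1.22 and 2.93. The median over all genes stayed within 0.016 of 0. Depth limits Gbp1, Gbp3 and the intact levels of Gbp5 and LOC685067.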
